A study of Arabidopsis thaliana with 6 samples.

Results

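The zinc-finger homeodomain genes described here are HB21, HB22, HB23, HB24, HB25, HB28, HB30, HB31, HB33 and HB34, 10 of the 27444 protein-coding nuclear genes of Arabidopsis thaliana. They were taken by locus code together with every PIF1 peak whose summit, the position of highest signal, lay inside the gene or within 3000 bp of either end. The samples were seedlings overexpressing Myc-epitope-tagged PIF1 (P1M), 3 libraries, and wild-type seedlings, which carry no tag, 3 libraries. Both kinds of seedling were 3 days old, were grown in darkness at 21 °C after 3 h of white light, and were harvested whole for chromatin immunoprecipitation (ChIP) of the Myc tag. PIF1 was overproduced in the tagged line and tissues were not separated, so the data do not say in which cells, or at native PIF1 levels, a place was occupied. The authors' peak lists 1, 2 and 3 each set 1 PIF1 library against 1 wild-type library.

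PIF1, a transcription factor of the basic helix-loop-helix class, accumulates in the dark. It holds back light responses and germination and is broken down when phytochromes are activated by light. Zinc-finger homeodomain proteins are a plant-specific family of transcription factors: the homeodomain binds DNA, and the zinc finger in front of it lets the proteins pair with each other. The related mini zinc finger (MIF) proteins have the zinc finger without the homeodomain and can pair with the full-length proteins and block them. Members of the family take part in growth, flowering, seed and stress responses.

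All 10 genes had at least 1 peak, as did 73.3% of all protein-coding nuclear genes. Of the 10, 9 had peaks of at least 2 lists that overlapped in 1 region (29.7% of all genes). Such a region in all 3 lists was found at 6 of them (9.38% of all genes). These 6 were HB22, HB23, HB24, HB31, HB33 and HB34. HB25, HB28 and HB30 had regions of lists 2 and 3, and HB21 had 1 weak peak, in list 3. HB33 held the strongest region by mean rank within the lists. In the other 5 of these 6 regions fold enrichment was highest in list 2, as it was in 89.9% of all 1390 regions found in all 3 lists. The genes were chosen by their presence beside peaks in these same lists, with earlier results known, so the counts and values are a description and no test is attached to them.

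**Figure D1:**
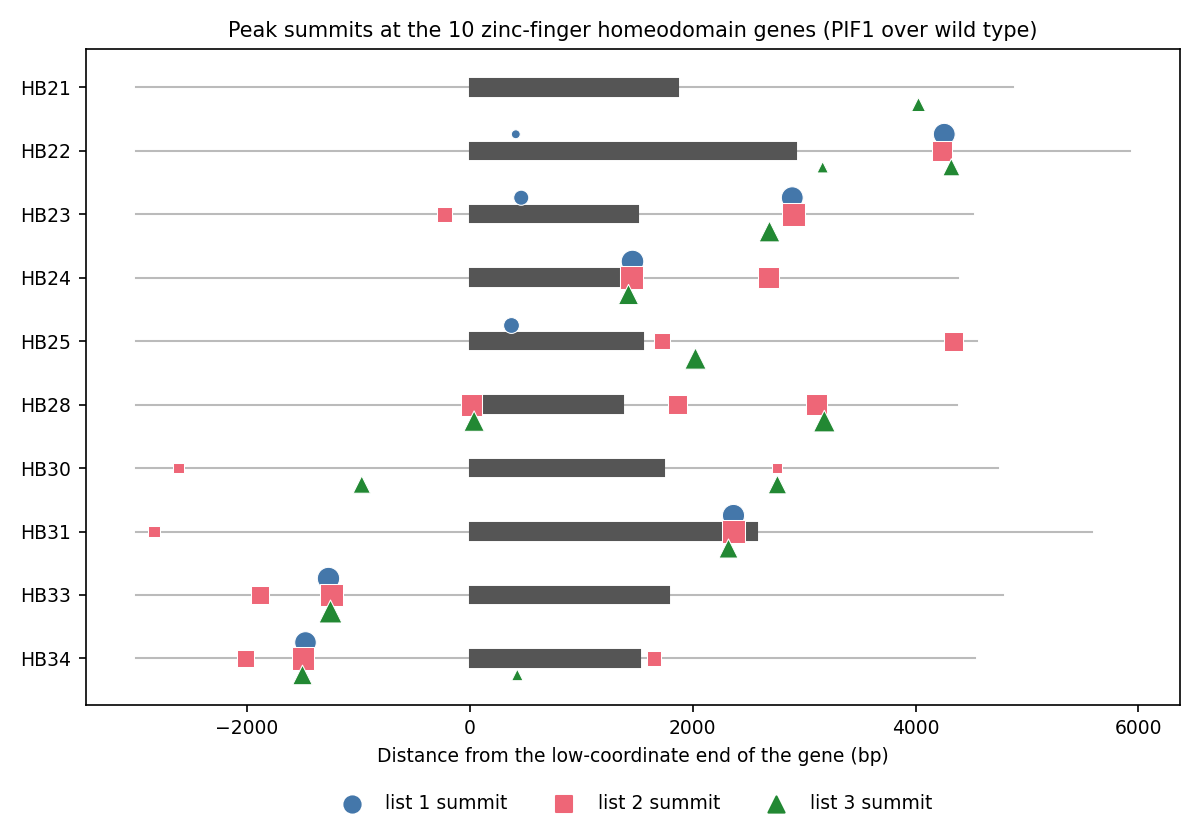
Each row shows 1 gene as a dark bar drawn to scale, with a grey line reaching 3000 bp beyond each end, and the horizontal axis is the distance in bp from the end with the lower coordinate. Points are peak summits of list 1 (circles), list 2 (squares) and list 3 (triangles), larger where the fold enrichment ranked higher within its list. Overlapping peaks of all 3 lists stand at HB22, HB23, HB24, HB31, HB33 and HB34, with summits 22 to 222 bp apart, widest at HB23. At HB21, 1 summit of list 3 stands alone.

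The list-by-list counts stand beside high counts over all genes. Summits of at least 1 list stood at all 10 genes (73.3% of all protein-coding nuclear genes), those of at least 2 lists at 9 (40.5%) and those of all 3 lists at 7 (13.6%), wherever in the window they lay. List 1 had a summit at 7 of the 10 genes (26.3% of all genes), list 2 at 9 (59.5%) and list 3 at all 10 (41.6%). A region with summits of at least 2 lists was found at 9 of the 10 (29.7% of all genes), and one with summits of all 3 lists at 6 (9.38%). Counted by region, 11 of the 25 at members (44%) held at least 2 lists, against 26.4% of all 18378 regions. All 3 lists were held by 6 of the 25 (24%), against 7.56% of all regions. Nothing is read from the gap between these shares, because the genes were chosen with earlier results of these lists known. The members had 9, 19 and 14 peaks in lists 1, 2 and 3, or 0.9, 1.9 and 1.4 per gene, where all genes averaged 0.31, 0.975 and 0.563. The members are short genes, with a median length of 1648 bp against 2078 bp over all genes, so their search windows were mostly shorter than those of other genes.

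**Figure D2:**
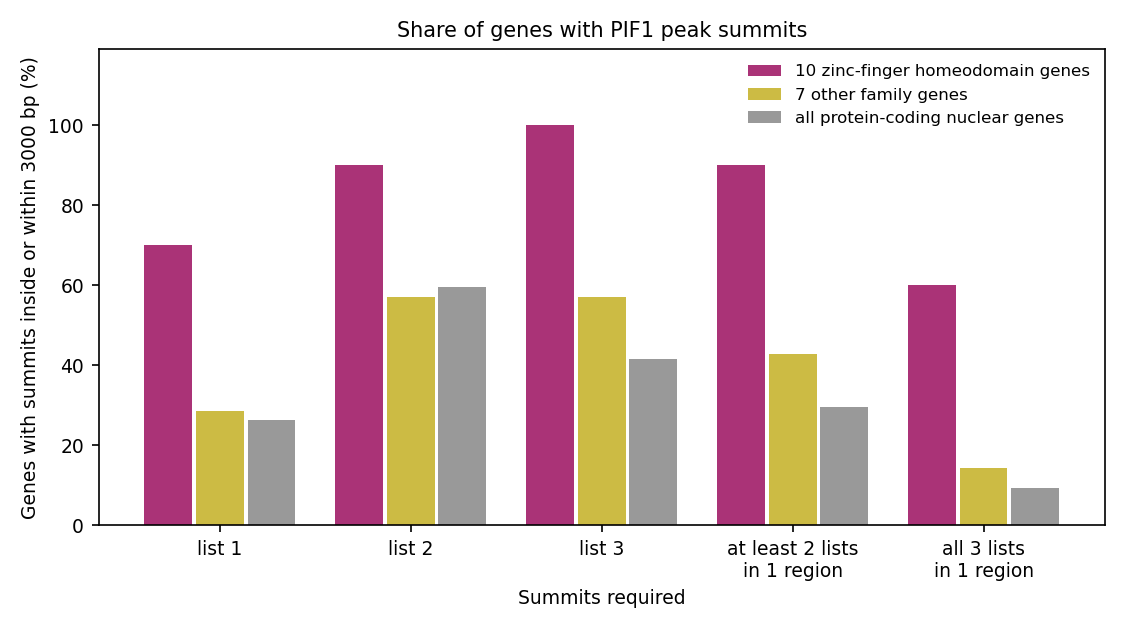
Bars give the percentage of genes with summits inside or within 3000 bp, for the 10 zinc-finger homeodomain genes, 7 other genes of the family and all 27444 protein-coding nuclear genes. From left to right the requirement is a summit in list 1, 2 or 3, then summits of at least 2 lists or of all 3 lists in 1 region; the homeodomain genes stand at 60% and all genes at 9.38% for the last.

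PIF1 libraries 1, 2 and 3 held 14209334, 5825479 and 5721184 tags after removal of excess duplicates, and their wild-type partners 17323572, 6134032 and 7435352. The fold enrichment of a peak is the authors' ratio of PIF1 tags to the local wild-type background, and its median over all peaks was 2.71, 5.29 and 3.87 in lists 1, 2 and 3, so a value is read within its list, as a percentile among all peaks of that list. The authors' peak caller took the false discovery rate (FDR) from peaks found with PIF1 and wild type exchanged. It was 100% for all 9 member peaks of list 1 (100% of all its peaks) and for 12 of the 14 of list 3 (82.5% of all its peaks). Of the 19 of list 2, 0 had 100% (0% of all its peaks) and 5 had 5% or less. The share of all list 2 peaks with 5% or less was not counted, so nothing is read from these 5.

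HB33 (ZHD5, AT1G75240) encodes a protein that pairs with MIF1 and takes part in growth and abscisic acid responses. Its region lay on chromosome 1, 28239361 to 28240105 (TAIR10), on the low-coordinate side of the gene and 1242 to 1269 bp from it. Fold enrichment there was 5.44, 16.65 and 23.37 in lists 1, 2 and 3, at percentiles 94.0, 96.7 and 99.6. The peaks held 179, 243 and 215 PIF1 tags, which is 12.6, 41.7 and 37.6 per 1000000 filtered tags of each library. In list 3 it was the peak of rank 30 among 7678, and by mean percentile the region ranked 161 of the 1390 regions found in all 3 lists. Of the 6 member regions of all 3 lists it was the 1 with a higher fold in list 3 than in list 2, which 9.57% of the 1390 regions showed. A second, weaker peak, of list 2 alone, lay 1883 bp from HB33 (fold 5.99, percentile 62.7) and was nearer to AT1G75230, at 1838 bp. That gene was 2452 to 2479 bp from the summits of the stronger region.

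HB23 (ZHD10, AT5G39760) encodes a partner of TZP in the control of hypocotyl growth. Its stronger region lay on chromosome 5, 15913822 to 15914617, past the high-coordinate end of the gene by 1176 to 1398 bp, with no other protein-coding gene within 3000 bp of the summits. Fold enrichment was 4.55, 25.27 and 5.21 in lists 1, 2 and 3. The list 2 value was the highest at any member, at percentile 99.0 of that list, while the other values stood at percentiles 89.0 (list 1) and 79.7 (list 3). The tags numbered 145, 260 and 74, or 10.2, 44.6 and 12.9 per 1000000 filtered tags. A second region, on chromosome 5 from 15910983 to 15912394, joined a list 1 peak inside the gene (fold 2.48, percentile 36.8) with a list 2 peak 225 bp before its low-coordinate end (4.74, percentile 36.6). Their summits were 686 bp apart, so these are overlapping peaks with separate summits rather than a shared one.

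HB25 (ZHD1, AT5G65410) and HB22 (ZHD2, AT4G24660) are close relatives, and HB25 is known for a role in seed longevity through gibberellin. At HB22 the region of all 3 lists lay on chromosome 4, 12726843 to 12727461, 1310 to 1398 bp past the high-coordinate end. Fold enrichment was 4.52, 7.56 and 3.87, at percentiles 88.8, 77.6 and 50.7, the lowest mean percentile of the 6 regions of all 3 lists. The summits were nearer to TAR2, a gene of a tryptophan aminotransferase-related protein of auxin synthesis, which was 298 to 386 bp away. Of the 6 genes with a region of all 3 lists, HB22 was the 1 where another gene was nearer to that region. HB22 also had a list 1 peak inside the gene (fold 2.01, percentile 5.8) and a list 3 peak 243 bp past it (3.0, percentile 16.3), both low in their lists. IPT4, a cytokinin synthesis gene, was 1881 bp from the first of these, and TAR2 1453 bp from the second.

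At HB25 each list had a peak close to the gene, but not at 1 place. The list 1 summit lay inside the gene (149 tags, fold 2.55, percentile 41.6). Peaks of lists 2 and 3 overlapped on chromosome 5, 26137628 to 26138218, with summits 170 and 471 bp past the high-coordinate end, folds of 5.09 and 5.72 and percentiles of 45.9 and 84.2. They held 33 and 45 tags. A further list 2 peak, 2791 bp away (fold 6.11), was nearer to CYCD4;1, a D-type cyclin gene 1125 bp from it. HB25 therefore had a peak of each list inside or up to 471 bp from the gene and no region of all 3 lists.

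HB31 (ZHD4, AT1G14440), also named FTM2 for its link to the floral transition at the meristem, was the 1 member with a region of all 3 lists inside the gene. It lay on chromosome 1, 4940845 to 4941413, with summits 214 to 259 bp short of the high-coordinate end. Fold enrichment was 4.98, 13.34 and 4.37, at percentiles 92.1, 94.1 and 65.5, with 102, 102 and 32 tags. A broad list 2 peak 2834 bp before the gene (1264 bp long, fold 3.96, percentile 15.3) lay inside the neighbouring gene AT1G14430 and 2258 bp from AT59. This was the outermost summit counted at any member. The nearest summit left out lay 3234 bp from HB31 (list 2, fold 10.11).

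HB24 (ZHD6, AT2G18350) and HB34 (ZHD9, AT3G28920) had the same order of percentiles as HB23 and HB31, highest in list 2 and lowest in list 3. The HB24 region, on chromosome 2 from 7972031 to 7972833, lay 39 to 74 bp past the high-coordinate end, the closest to a gene end among the regions of all 3 lists outside a gene. Fold enrichment was 6.02, 19.96 and 4.8 in lists 1, 2 and 3 (percentiles 95.9, 98.0 and 74.5), with 178, 211 and 84 tags. The list 1 value was the highest of that list at any member. AT2G18340 was 1321 to 1356 bp away. A list 2 peak 1298 bp past HB24 had a fold of 8.63 and no counterpart in lists 1 and 3. AT2G18340 was 2580 bp from it.

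The HB34 region, on chromosome 3 from 10938514 to 10939119, lay 1480 to 1502 bp before the low-coordinate end, with no other protein-coding gene within 3000 bp of the summits. Fold enrichment was 4.26, 19.63 and 4.54 (percentiles 86.6, 98.0 and 69.6), with 80, 147 and 34 tags, or 5.63, 25.2 and 5.94 per 1000000 filtered tags. HB34 had 6 peaks in all, the most of any member. The other 3 were each of 1 list, at 2014 bp before the gene (list 2, fold 5.21), inside it (list 3, 3.02) and 125 bp past it (list 2, 4.69), and all 3 stood below the median percentile of 50.

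**Figure D3:**
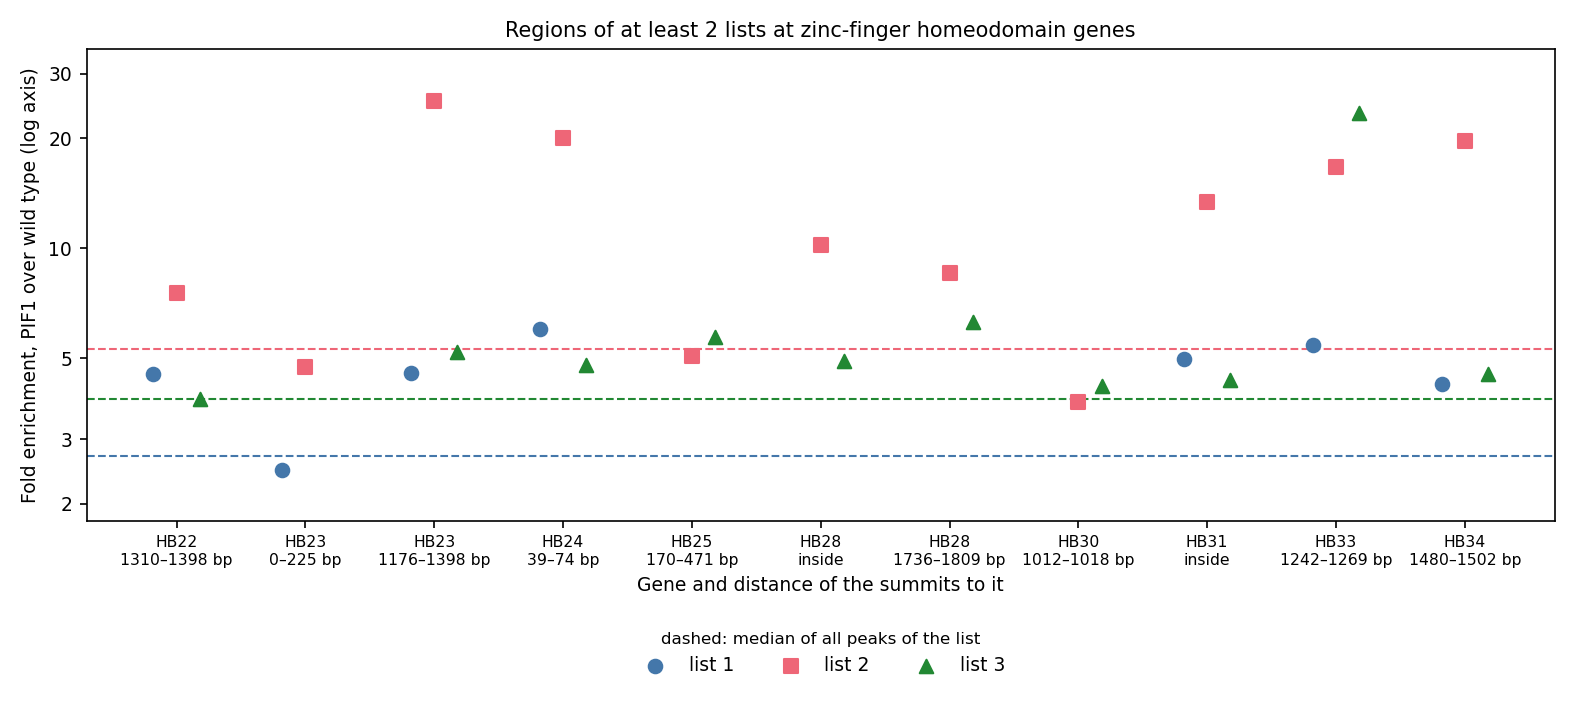
Fold enrichment over wild type on a log axis for the 11 regions with peaks of at least 2 lists, named by gene with the distance of the summits to it. Circles, squares and triangles are lists 1, 2 and 3, and dashed lines mark the median of all peaks of each list. List 2 reaches 25.27 at HB23 and 19.96 at HB24, and the list 3 values are highest at HB33, with 23.37.

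HB28 (ZHD7, AT3G50890) had 2 regions of lists 2 and 3 and no list 1 peak. The first lay at the low-coordinate end, on chromosome 3 from 18915769 to 18916725, with summits 15 and 38 bp inside the gene, folds of 10.18 and 4.92 and percentiles of 88.9 and 76.4 in lists 2 and 3. AT3G50880 was 935 and 958 bp from these summits and AT3G50900 1753 and 1730 bp. The second, from 18918577 to 18919765, lay 1736 and 1809 bp past the other end, with folds of 8.58 and 6.29 and percentiles of 83.0 and 87.4. It was nearer to AT3G50910, at 205 and 132 bp, and to AT3G50900, at 311 and 384 bp. These values were above the median of their lists in both regions. A list 2 peak between them (fold 6.46) lay inside AT3G50900, 1450 bp from AT3G50910 and 2783 bp from AT3G50880.

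HB30 (ZHD8, AT5G15210) had 4 peaks, none above percentile 61.2. Its region of lists 2 and 3, on chromosome 5 from 4939944 to 4940448, had summits 6 bp apart, about midway between HB30 (1012 and 1018 bp) and AT5G15220 (1018 and 1012 bp). Folds were 3.8 and 4.2, at percentiles 11.7 and 61.2, with 59 and 31 tags. On the low-coordinate side a list 2 summit lay inside AT5G15200 (fold 3.86) and a list 3 summit 66 bp from that gene (3.89), which is 2617 and 970 bp from HB30. AT5G15190 was 1228 and 2875 bp from these 2 summits, and AT5G15180 was 2442 bp from the list 2 summit.

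HB21 (ZHD3, AT2G02540) had a single peak, on chromosome 2 from 687413 to 687800 in list 3, with 33 tags, a fold of 3.36, percentile 30.7 and an FDR of 100%. Its summit was 2154 bp from HB21 and inside AT2G02550, with CAND1, a regulator of cullin-RING ubiquitin ligases, 2134 bp away. The nearest summits of lists 1 and 2 lay outside the window, at 6376 bp (fold 3.68) and 3905 bp (7.95).

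**Figure D4:**
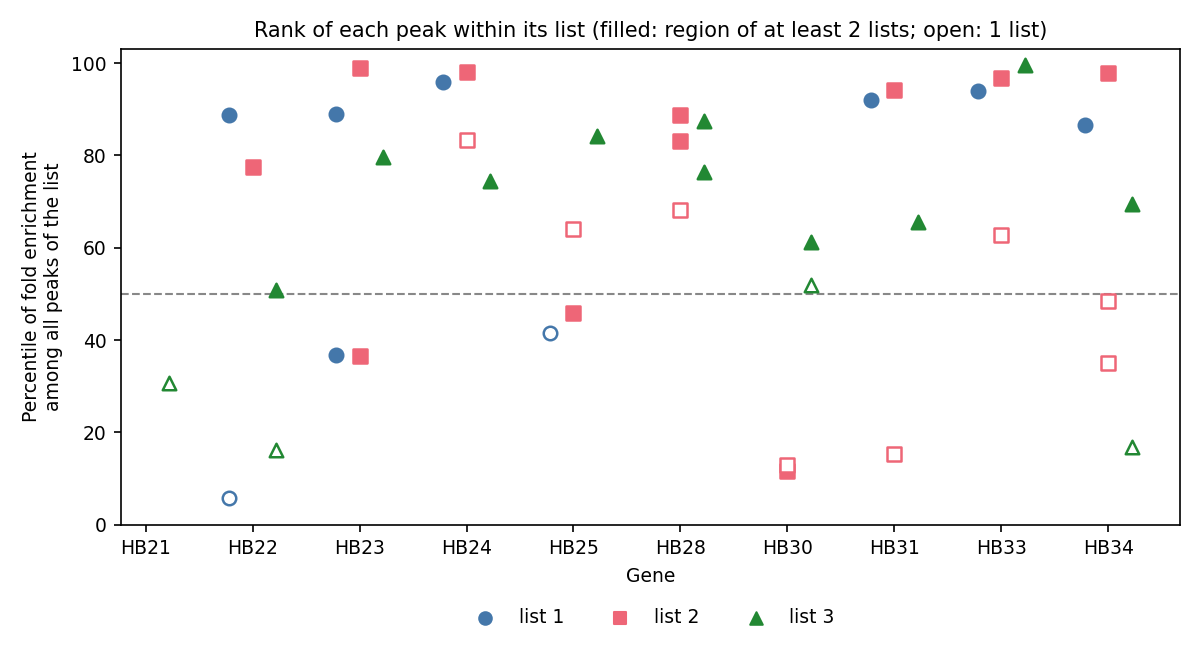
Percentile of the fold enrichment of each of the 42 peaks among all peaks of its list, by gene, with the dashed line at the 50th percentile. Filled points belong to a region of at least 2 lists and open points to a region of 1 list. HB33 has 3 filled points above 90, whereas HB21 has 1 open point at 30.7.

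Across the 42 peaks the median fold was 4.52, 6.46 and 4.46 in lists 1, 2 and 3 (median percentiles 88.8, 68.1 and 67.5, where all peaks of a list have 50). In the 6 regions of all 3 lists the median fold was 4.77, 18.1 and 4.67, and over all 1390 such regions it was 3.92, 11.3 and 6.02. The median of the member regions thus stood above that of all such regions in lists 1 and 2 and below it in list 3. The exceptions were HB22 with 7.56 in list 2, below the median, and HB33 with 23.37 in list 3, above it. Summits of the 3 lists lay within 22 to 222 bp of each other, with a median of 40 bp, while over all 1390 regions the median was 48 bp. HB34, HB33, HB24 and HB31 had ranges of 22, 27, 35 and 45 bp, HB22 had 88 bp, and HB23, where the list 3 summit lay apart from those of lists 1 and 2, had 222 bp.

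Position relative to the genes varied. Of the 42 summits, 9 lay inside the gene, 12 on its low-coordinate side and 21 on its high-coordinate side, and 13 were nearer to another protein-coding gene. Of the 11 regions of at least 2 lists, 9 had no gene nearer to the mean of their summits than the member. The exceptions were those beside TAR2 (HB22) and AT3G50910 (HB28). The 9 include the HB30 region, which was equally far from AT5G15220. The strand of the genes was not used, so it is not stated which side is upstream.

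Of 7 other listed genes of the family, 3 had a region of at least 2 lists (HB26, MIF1 and MIF3; 29.7% of all genes) and 1 had a region of all 3 (MIF3; 9.38% of all genes), and MIF2 and HB32 had no peak. The MIF3 (AT1G18835) region lay 666 to 727 bp past the gene on chromosome 1, 6496420 to 6497512, with folds of 4.96, 19.37 and 6.72. MIF3 encodes one of the mini zinc finger proteins named above. At MIF1, folds were 9.02 and 3.87 in lists 2 and 3, between 571 and 738 bp away. HB29 (ZFHD1), which acts with NAC proteins on the dehydration gene ERD1, had 3 peaks, all of list 2, with folds up to 9.06. HB26 had folds of 7.45 and 3.39 in lists 2 and 3 at a region 291 to 316 bp away and nearer to AT5G60470. A second HB26 region joined peaks of lists 1 and 2 (2.05 and 6.01), whose summits lay 560 bp apart and inside FLA12, and HB27 had 1 peak of list 3 (3.15).

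Among 7 genes listed as partners or targets of the family, 3 had a region of at least 2 lists (ERD1, NAC019 and NAC055), against 29.7% of all genes, and 1 of all 3 (NAC019), against 9.38%. At NAC019, a stress-related NAC transcription factor gene, folds were 4.11, 6.61 and 3.53 in lists 1, 2 and 3, at 722 to 976 bp. A second NAC019 region, of lists 2 and 3, lay 56 to 57 bp from the gene with folds of 7.12 and 3.87. NAC055 (NAC3 in the gene table) had folds of 9.35 and 5.55 in lists 2 and 3 at 533 to 552 bp, and a second region at 72 to 381 bp on its other side with 5.69 and 5.72. At ERD1 the region of lists 2 and 3 had folds of 5.87 and 2.6 inside the gene. TZP had 1 peak of list 2 (3.87), and NAC072 (RD26) 1 of list 3 (3.3). GA3OX2, a gibberellin synthesis gene, had none. PIF4, which promotes hypocotyl growth, had 5 peaks, all of list 2, with folds up to 6.34.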

How the data were processed

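Peaks came from chromatin immunoprecipitation with single-end sequencing of 3 PIF1 and 3 wild-type libraries, grouped by title. Each library pooled 4 assays from 2 biological replicates, per the labels' protocols, so the spread between lists may be partly technical. Per the submitters' processing notes, the build was TAIR10 and the tools included MACS 1.4.1, Bowtie 0.12.7 and CASAVA 1.8.0. Peaks were called per PIF1 library against 1 wild-type library, not on pooled samples, with a p cutoff of 1e-05, per the file headers. The deposited columns are a tag count of the PIF1 library, a score (10 times the negative log10 of p), a fold enrichment (a ratio to local wild-type background) and an FDR in percent. They give no wild-type tags per peak, so no test between the groups was made. Per the file headers, redundant tags made up 13%, 70% and 66% in the PIF1 libraries, against 24%, 61% and 15% in their wild-type partners.

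With Python 3.11.15 and pandas 2.3.3, the summit was placed at start + summit - 1, and peaks of different lists overlapping by at least 1 bp were joined into regions, each list represented by its peak of highest fold. Gene ends, neighbours and distances came from a RefSeq table of assembly TAIR10.1, in which all 10 members matched by locus code. Its coordinates are not given, because that assembly and the build of the peaks have different names. Sequence and motifs were not analysed here. The scripts were tested on simulated data.

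The genes, the window and the lists of 7 family and 7 partner genes were chosen with earlier results of these data known. Named genes are all of these and every protein-coding gene within 3000 bp of a summit at a member. Alternatives changed the window, the peak threshold, the way peaks were placed and joined, the gene assignment and the lists used.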

Additional observations from a re-analysis of the deposited data

How the results depend on the processing

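Of 59 alternative counts, 38 stayed within 1.5 times the reported one and 21 did not. HB33 kept peaks of all 3 lists at 5-fold or more, and no other member did. That cut fell at different ranks in the lists. The list 1 peak at HB31 missed it with 4.98, at percentile 92.1. A list 2 peak at HB25 passed it with 5.09, at percentile 45.9. With a window of 1000 bp, 3 members had peaks of all 3 lists (7 reported; 6.17% of all genes, against 13.6% at 3000 bp) and 19 peaks lay at members (42 reported). Windows of 2000 and 5000 bp gave 7 members each (9.77% and 22% of all genes). With a score of at least 100, 5 members had peaks of at least 2 lists (18.1% of all genes) and 3 of all 3 (5.31%). Members with a peak then numbered 4 in list 1 and 4 in list 3, with 21 peaks in all lists together. With a fold of at least 5 they numbered 2 in list 1 and 4 in list 3, with 20 peaks. At that cut 5 members had peaks of at least 2 lists (2890 of all 27444 genes) and 1 of all 3 (2.09% of all genes). With an FDR of 5% or less, 5 peaks at 5 members remained, all in list 2. The peak kept at HB28 was nearer to AT3G50910 (205 bp) than to HB28 (1736 bp). Members then numbered 0 in list 1, 0 in list 3, 0 in at least 2 lists (0.0255% of all genes) and 0 in all 3 (0%). That filter leaves no peak of list 1 at any gene. Counting only the nearest gene, 6 members had peaks of all 3 lists. Shares over all genes were not counted for that setting, nor for single lists under any alternative. Leaving out 1 replicate at a time gave 23 to 33 peaks, 7 to 9 members with peaks of at least 2 lists (9, 7 and 7 without replicates 1, 2 and 3, against 32.8%, 15.4% and 19.4% of all genes), and 6 to 10 regions of at least 2 lists (11 reported): 10 without replicate 1, 6 without replicate 2 and 7 without replicate 3. Shares over all regions were not counted with a replicate left out. No paired analysis was possible because the result comes from peak lists and no test. Several list 2 and 3 peaks rest on few tags: 33 at HB21, 33 and 45 at HB25, 31 at HB30 and, within regions of all 3 lists, 41 at HB22, 32 at HB31 and 34 at HB34, where the smallest peaks of lists 2 and 3 held 26.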
